A study of Mus musculus with 77 samples.

Results

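The neurotrophins are a small family of secreted growth factors. Each binds a Trk receptor tyrosine kinase with high affinity, and all bind the shared receptor p75NTR. This report covers 6 genes of that system: Bdnf and Ntf3, which encode the ligands brain-derived neurotrophic factor and neurotrophin-3, Ntrk2 and Ntrk3, which encode their receptors TrkB and TrkC, Ngfr, which encodes p75NTR, and Sort1, which encodes sortilin, a co-receptor of p75NTR for proneurotrophins and a sorting receptor for BDNF inside the cell. The genes were chosen by name, with earlier results of these data known. Of the 6 genes, 5 were among the 16587 genes measured in AGO2-bound mRNA of the BNST (bed nucleus of the stria terminalis), and 3 (Ntrk2, Ntrk3 and Sort1) were among the 13084 genes measured in blood. Ntf3 was not analysed here.

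All mice were male and 8 weeks old at dissection. AGO2-bound RNA came from C57BL/6Crl (B6) mice. The control mice lived beside an unfamiliar mouse behind a divider and were never attacked, and the other mice went through chronic social defeat stress (CSDS), in which a mouse is attacked day after day by a larger aggressor. Defeated mice that approached a social target as controls do were called resilient and those that avoided it susceptible, and animals at the extremes of this behaviour were used. The BNST, a small forebrain nucleus that takes part in anxiety responses, was collected between 6 and 8 days after the end of the stress, and the BNST of 3 mice made 1 pool. AGO2, the Argonaute protein that carries miRNAs to their target mRNAs, was immunoprecipitated from each pool. The mRNA bound to it was sequenced from 5 control, 5 resilient and 4 susceptible pools, and the miRNA from 5, 5 and 3 pools. Blood RNA came from single mice, 5 in each of the groups B6 control, B6 resilient, B6 susceptible, DBA/2Crl (D2) control and D2 susceptible.

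TrkB and TrkC dimerise when they bind their ligands and signal through adaptor proteins into the Ras-MAP kinase and PI3K-Akt pathways and through phospholipase C gamma. In the adult brain TrkB is made by neurons and, as a form without the kinase, by astrocytes. p75NTR binds all neurotrophins and, together with sortilin, their uncleaved precursors. Values below are log2 CPM (reads of a gene relative to a scaled size of its library), a scale on which a difference of 1 is a doubling. AGO2-bound mRNA was measured without comparison to the total mRNA of the same pools, so a change in the amount of a transcript and a change in its binding to AGO2 cannot be told apart, nor can fewer cells of a type and less RNA per cell.

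The study links both Trk receptors to miRNAs. Its list of predicted targets pairs Ntrk3 with miR-99b-5p and miR-34c-5p. Its text names Ntrk2 as a differentially expressed gene and a predicted target of miR-99b and miR-100. The list holds only pairs in which the study had called both the miRNA and the mRNA. The calls of Ntrk2, Ntrk3 and the paired miRNAs below are thus from data in which the study had already called them. The mature miRNAs of both families with a sequence in the RefSeq set used here are shown because the families meet the members' transcripts at different places. That set had no entry for miR-34c-5p, so its sequence is not shown and its seed was not checked here. Bases 2 to 8, the seed that pairs with the target, are in capitals. Of the miRNAs shown, those of miR-99 and miR-100 share a seed, and those of miR-34 and miR-449 share another, below called the miR-99 and miR-34 seeds.
miR-99a-5p: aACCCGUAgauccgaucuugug
miR-99b-5p: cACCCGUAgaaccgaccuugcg
miR-100-5p: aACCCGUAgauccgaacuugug
miR-34a-5p: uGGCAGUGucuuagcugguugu
miR-34b-5p: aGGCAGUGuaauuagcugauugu
miR-449a-5p: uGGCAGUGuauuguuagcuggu
miR-449c-5p: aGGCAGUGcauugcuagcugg

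The 3 prime UTRs of the members were searched on the transcript strand for the 7 bases that pair with each seed, TACGGGT for miR-99 and CACTGCC for miR-34. The UTR was the longest annotated one of each gene in GRCm38, with 16600 bases for Ntrk3, 5617 for Ntrk2, 4268 for Sort1, 2855 for Bdnf and 1985 for Ngfr. Only this UTR of each gene was searched, and those of its other transcripts were not. The first motif occurred once, in Ntrk3, and was not found in the searched UTR of Ntrk2. It stood in 1.40% of the 13866 annotated UTRs of genes in the AGO2 table, whose median length was 1251 bases, and in 0 of the 11 other UTRs of a length like that of Ntrk3 and 2.69% of the 670 like that of Ntrk2. The second occurred 3 times in Ntrk3, 2 times in Bdnf and once each in Ntrk2 and Sort1, not in Ngfr, and stood in 17.9% of UTRs. Among UTRs between 0.8 and 1.25 times as long, it stood in 90.9% of the 11 like Ntrk3, 42.1% of the 670 like Ntrk2, 36.2% of the 1246 like Sort1 and 28.6% of the 2075 like Bdnf. The matches are shown with their flanks, 5 prime to 3 prime, with the match in capitals, as descriptions of the sequence and not as measured binding sites.
Ntrk3, miR-99, minus strand, chr7:78191841-78191869: atgatgacaccTACGGGTaaatactgaac
Ntrk3, miR-34, minus strand, chr7:78191600-78191628: tcctaccaaggCACTGCCgctcatcttcc
Ntrk3, miR-34, minus strand, chr7:78190975-78191003: gccaggggaatCACTGCCttccccactgt
Ntrk3, miR-34, minus strand, chr7:78182838-78182866: acaaagaagatCACTGCCatctgtaaatc
Ntrk2, miR-34, plus strand, chr13:59132454-59132482: tttgcaaatggCACTGCCagcagtacctg
Bdnf, miR-34, plus strand, chr2:109724908-109724936: tgctcacactcCACTGCCcatgatgtatc
Bdnf, miR-34, plus strand, chr2:109725313-109725341: gcagggatccaCACTGCCattgaaatagg
Sort1, miR-34, plus strand, chr3:108360092-108360120: gccttggacccCACTGCCtctgagtctac

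The members fell into 2 ranges of abundance in AGO2-bound mRNA. Per kilobase of annotated exon, Sort1 was highest in the control pools at 37.0 ± 1.7 CPM per kb (SD, n = 5), followed by Ntrk2 at 22.9 ± 1.1 and Ntrk3 at 8.24 ± 0.99, and these 3 differed from each other beyond their spread. The order depends on the length used, all annotated exons of a gene together (7569 bases for Sort1, 19292 for Ntrk2 and 30170 for Ntrk3). Without it Ntrk2 was highest in the control pools, at a mean of 442.6 CPM against 280 for Sort1 and 248.6 for Ntrk3. Ngfr at 1.05 ± 0.35 and Bdnf at 0.67 ± 0.31 CPM per kb did not differ beyond their spread. Reads behind the values ranged from 1085 to 3869 per pool for Ntrk2, from 468 to 2588 for Ntrk3 and from 963 to 3212 for Sort1. They ranged from 6 to 31 for Ngfr and from 4 to 46 for Bdnf, so these 2 low transcripts carry large counting error.

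Of the receptors, Ntrk2 was lower in both defeated groups (Ensembl ENSMUSG00000055254, plus strand, chr13:58806569-59133970). The control pools 1 to 5 stood at 8.85, 8.79, 8.86, 8.72 and 8.72 log2 CPM. The resilient pools 1 to 5 stood at 8.59, 8.39, 8.49, 8.42 and 8.33, and the susceptible pools 1 to 4 at 8.41, 8.23, 8.47 and 8.15. Every control pool was above every defeated pool, while the resilient and susceptible pools overlapped. In resilient pools its log2 fold change was -0.34 (SE 0.08, 95% interval from -0.52 to -0.17), with an exact permutation p = 0.00794 and a limma adjusted p = 0.0434. In susceptible pools it was -0.47 (SE 0.09, interval from -0.66 to -0.29), with an exact permutation p = 0.00794 and a limma adjusted p = 0.0114. This exact p is the smallest that either number of pools can give. On the linear scale Ntrk2 fell by 21.2% and fell by 28.0%.

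Ntrk3 fell as well (ENSMUSG00000059146, minus strand, chr7:78175959-78738012). Its control pools 1 to 5 stood at 8.19, 7.94, 7.70, 7.94 and 7.99 log2 CPM. The resilient pools 1 to 5 stood at 7.40, 7.11, 7.91, 7.47 and 7.12, and the susceptible pools 1 to 4 at 7.53, 7.50, 7.19 and 7.27. Resilient pool 3 lay within the control range and the other 4 resilient pools and all susceptible pools lay below it. The log2 fold change in resilient pools was -0.55 (SE 0.14, 95% interval from -0.84 to -0.26), with an exact permutation p = 0.0159 and a limma adjusted p = 0.0473. In susceptible pools it was -0.58 (SE 0.14, interval from -0.88 to -0.27), with an exact permutation p = 0.00794 and a limma adjusted p = 0.0355. On the linear scale Ntrk3 fell by 31.6% and fell by 33.0%. Resilient pool 3 was also the most deeply sequenced, with 10659882 reads against 3701281 to 7604641 in the other pools, and without it the log2 fold change in resilient pools was -0.68 (adjusted p = 0.00361 from limma).

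**Figure D1:**
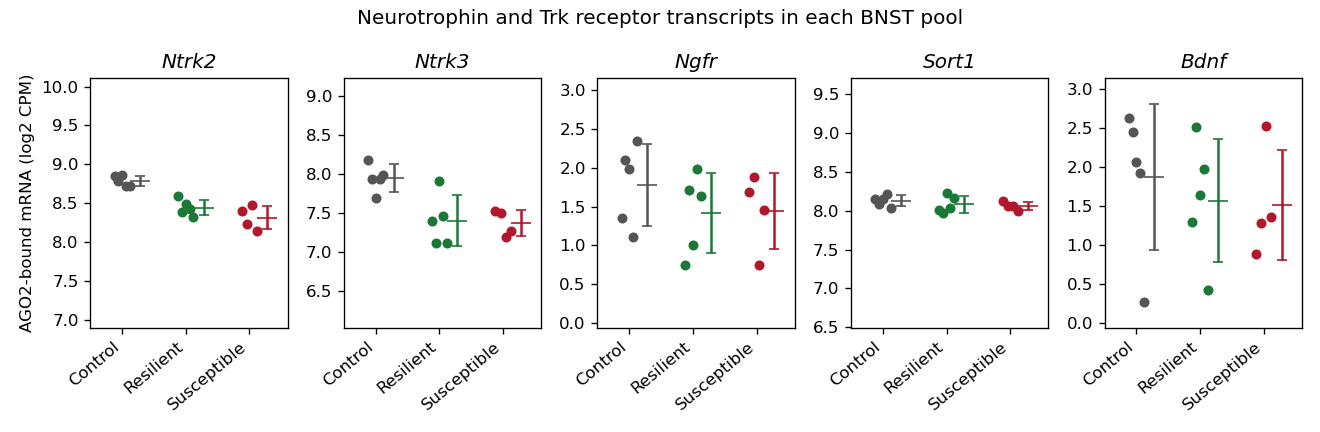
AGO2-bound mRNA of the 5 measured members in each BNST pool, on the y axis in log2 CPM, for control, resilient and susceptible pools on the x axis (points: pools, cross bar and whiskers: mean ± SD). All panels span the same number of log2 units. The control pools of Ntrk2 lie between 8.72 and 8.86, above all defeated pools, and those of Ntrk3 lie above all defeated pools but resilient pool 3.

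Neither Trk receptor differed detectably between the defeated groups. Susceptible minus resilient was -0.13 for Ntrk2 (SE 0.09, 95% interval from -0.32 to 0.06, exact permutation p = 0.159) and -0.03 for Ntrk3 (SE 0.14, interval from -0.33 to 0.27, exact permutation p = 0.889). Both defeated groups were compared with the same control pools, so their differences from control are not independent of each other. The 2 receptors varied together over the 14 pools (Pearson r = 0.75), and after the mean of each group was taken away r was 0.21, a description over pools that share libraries and scaling.

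Sort1 did not differ detectably between the groups (ENSMUSG00000068747, plus strand, chr3:108284082-108361511). Its control pools 1 to 5 stood at 8.15, 8.09, 8.14, 8.21 and 8.03 log2 CPM, the resilient pools at 8.01, 7.97, 8.23, 8.04 and 8.16, and the susceptible pools at 8.12, 8.06, 8.06 and 8.00. All 3 groups overlapped. The log2 fold change was -0.05 in resilient pools (SE 0.07, 95% interval from -0.20 to 0.11, exact permutation p = 0.46) and -0.07 in susceptible pools (SE 0.08, interval from -0.23 to 0.10, exact permutation p = 0.151). The intervals leave out a change of the size seen for Ntrk3. An exon of Sort1 overlaps the gene Gm12523 on the opposite strand, and reads of the pair cannot be told apart if strand was not used in counting, which the sources used here do not state.

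Ngfr, encoding p75NTR, was present at a low level (ENSMUSG00000000120, minus strand, chr11:95568818-95587735). Its control pools 1 to 5 stood at 1.36, 2.09, 1.99, 1.11 and 2.34 log2 CPM, the resilient pools at 0.75, 1.72, 1.00, 1.98 and 1.64, and the susceptible pools at 1.68, 1.88, 0.75 and 1.46. The groups overlapped throughout. The differences were -0.36 in resilient pools (SE 0.32, 95% interval from -1.04 to 0.32, exact permutation p = 0.278) and -0.34 in susceptible pools (SE 0.34, interval from -1.06 to 0.39, exact permutation p = 0.349). Over 20 alternatives they ran from -0.53 (control pool 4 left out) to -0.19 (resilient pool 1 left out) and from -0.50 (control pool 4 left out) to -0.10 (susceptible pool 3 left out), with no call. A fall as large as that of either Trk receptor lies within both intervals and was not detectable at this depth.

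The ligand transcript Bdnf was as scarce and more variable (ENSMUSG00000048482, plus strand, chr2:109674700-109727007). Its control pools 1 to 5 stood at 2.63, 2.45, 2.07, 1.92 and 0.27 log2 CPM, the resilient pools at 1.30, 2.51, 1.64, 1.98 and 0.41, and the susceptible pools at 0.89, 1.28, 2.53 and 1.36. The groups overlapped throughout, and each spanned more than 1 log2 unit. The difference was -0.30 in resilient pools (SE 0.46, 95% interval from -1.26 to 0.66, exact permutation p = 0.587) and -0.35 in susceptible pools (SE 0.48, interval from -1.37 to 0.66, exact permutation p = 0.532). Single pools moved these values: over 20 alternatives they ran from -0.70 (without control pool 5) to -0.01 (without resilient pool 5) and from -0.75 (without control pool 5) to -0.14 (without susceptible pool 1), with no call. An exon of Bdnf overlaps the gene Gm45346 on the opposite strand.

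**Figure D2:**
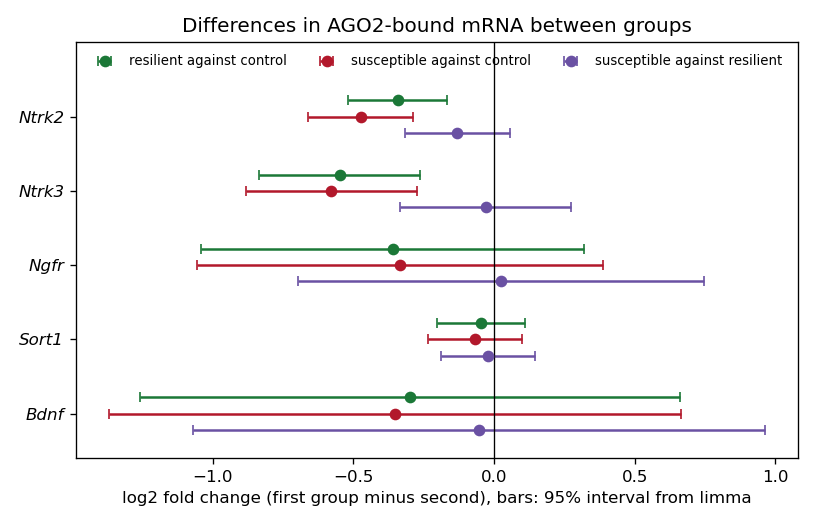
Log2 fold changes of the 5 members in AGO2-bound mRNA on the x axis, first group minus second, with 95% intervals from limma as bars, 1 row a gene and 1 colour a comparison. The intervals of Ntrk2 and Ntrk3 against controls lie below 0, those of Sort1 are narrow around 0, and those of Ngfr and Bdnf are wide.

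The study called a gene where the unadjusted p was below 0.05 and the fold change at least 1.2. By these criteria 2 of 5 measured members, Ntrk2 and Ntrk3, were called in resilient pools against controls and the same 2 in susceptible pools. Over all genes 17.7% were called in resilient pools (9.04% lower and 8.65% higher) and 18.9% in susceptible pools (9.28% lower and 9.65% higher). At an adjusted p below 0.05 in limma, the same 2 members were among 1.95% of all genes in resilient and 4.02% in susceptible pools. In susceptible against resilient pools 0 of 5 members were called, where 2.14% of all genes were called by the study's criteria and 0% at an adjusted p below 0.05 in limma. The groups did not overlap for 1 member (Ntrk2) in resilient against control pools, for 2 in susceptible against control pools and for 0 in susceptible against resilient pools, against 5.18%, 10.9% and 0.591% of all genes.

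Both Trk receptors met the study's criteria against controls in all 21 alternative settings, with log2 fold changes from -0.38 to -0.31 for Ntrk2 and from -0.68 to -0.48 for Ntrk3 in resilient pools, and from -0.53 to -0.37 and from -0.64 to -0.52 in susceptible pools. The adjusted p was less stable. It stayed below 0.05 in susceptible pools in 20 of 21 settings for Ntrk2, the exception being the fit without susceptible pool 2 (0.0581), and in 12 of 21 for Ntrk3 (0.00809 to 0.0945). In resilient pools it stayed below 0.05 in 8 of 21 settings for Ntrk2 (0.0174 to 0.113) and in 6 of 21 for Ntrk3 (0.00361 to 0.121). Settings that leave out a pool of the group not compared cannot move the fold change. The 8 for Ntrk2 include the fits without susceptible pools 1 to 4 (0.0472, 0.0409, 0.0464 and 0.0412). The 12 for Ntrk3 in susceptible pools include the fits without resilient pools 1 to 5 (0.00947 to 0.0467).

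The counts sum all transcripts of a gene. Ntrk2 has 7 and Ntrk3 has 6 annotated coding transcripts, and receptors with and without the kinase domain are not separated here.

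Of receptors and co-receptors, 25% were called in resilient and 16.7% in susceptible pools, beside 17.7% and 18.9% of all genes. Of 12 receptor and co-receptor genes, all measured, 3 were called lower in resilient pools (Ntrk2, Ntrk3 and Rtn4r) and 2 in susceptible pools (Ntrk2 and Ntrk3), and none higher. The median log2 fold change of the list was -0.04 and -0.02, beside -0.02 and -0.01 over all genes. Rtn4r, the Nogo receptor that forms a complex with p75NTR, was named after its values were seen, with a log2 fold change of -0.80 in the resilient group (SE 0.26, limma adjusted p = 0.108) and -0.58 in the susceptible group (SE 0.28, limma adjusted p = 0.239). None of the 4 sortilin relatives was called: the differences in resilient and susceptible pools were 0.05 and 0.03 for Sorcs1, 0.02 and 0.02 for Sorcs2, -0.03 and 0.30 for Sorcs3 and 0.00 and 0.06 for Sorl1.

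Downstream of the receptors, transcripts moved in both directions. The shares called, resilient then susceptible, stand beside 17.7% and 18.9% of all genes. They were 25% and 25% of adaptors, 21.1% and 21.1% of the Ras-MAP kinase branch and 12.5% and 31.2% of the PI3K-Akt branch. For the phospholipase C gamma branch they were 21.4% and 35.7%. Among p75NTR effectors they were 15.8% and 15.8%, and among processing genes 16.7% and 33.3%. Of 20 adaptors and docking proteins 3 were called lower and 2 higher in resilient pools, and 2 lower and 3 higher in susceptible pools (medians 0.01 and -0.00). Grb2, the adaptor that links receptors to the Ras activator Sos, stood at 6.52 ± 0.12 log2 CPM in control, 6.23 ± 0.20 in resilient and 6.04 ± 0.21 in susceptible pools (SD, n = 5, 5 and 4). It was called in both, with a log2 fold change of -0.48 in the susceptible group (SE 0.12, limma adjusted p = 0.0355) and -0.28 in the resilient group (SE 0.11, limma adjusted p = 0.168). Nedd4l, a ubiquitin ligase of membrane proteins, was called in both as well, at -0.40 in the susceptible group (SE 0.11, limma adjusted p = 0.0469) and -0.30 in the resilient group (SE 0.10, limma adjusted p = 0.112).

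Plcg1, the phospholipase C gamma that docks directly on activated TrkB and TrkC, was higher in both defeated groups. It rose from 7.19 ± 0.08 log2 CPM in control pools to 7.66 ± 0.08 in resilient and 7.66 ± 0.20 in susceptible pools (SD, n = 5, 5 and 4), a difference of 0.47 in each (SE 0.09, adjusted p = 0.0196 in resilient and 0.014 in susceptible pools from limma). It was 1 of 2 genes called higher among 14 of the phospholipase C gamma branch in resilient pools and 1 of 3 in susceptible pools, against 1 and 2 called lower (medians 0.01 and 0.01). The gene lower in both groups, named after its values were seen, was Camk2a, a calcium-dependent kinase of excitatory synapses, at -0.30 (SE 0.12, adjusted p = 0.168 from limma) and -0.47 (SE 0.13, adjusted p = 0.0502).

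Of 19 genes of the Ras-MAP kinase branch, 2 were called lower and 2 higher in each defeated group (medians -0.07 and 0.01). A lower one, named after its values were seen, was the kinase Map2k1 (MEK1), at -0.49 in resilient and -0.45 in susceptible pools (SE 0.16 and 0.17). A higher one, also named after its values were seen, was Mapk7, at 0.32 and 0.38 (SE 0.11 in each). No gene of the branch had an adjusted p below 0.05 in limma. Of 16 genes of the PI3K-Akt branch, 0 were called lower and 2 higher in resilient pools, and 2 lower and 3 higher in susceptible pools (medians -0.03 and -0.05).

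On the p75NTR side, 19 effector genes gave 1 call lower and 2 higher in resilient pools and 2 lower and 1 higher in susceptible pools (medians -0.04 and 0.06). Bex3, whose product binds the death domain of p75NTR, stood at 6.44 ± 0.11 log2 CPM in control, 5.94 ± 0.18 in resilient and 5.84 ± 0.19 in susceptible pools (SD, n = 5, 5 and 4). The log2 fold change was -0.50 in the resilient group (SE 0.11, limma adjusted p = 0.0292) and -0.60 in the susceptible group (SE 0.11, limma adjusted p = 0.0122). Ngfr itself was not called. Of 12 measured genes for the processing and release of proneurotrophins, out of 14 listed, 1 was called lower and 1 higher in resilient pools and 2 each way in susceptible pools (medians -0.03 and 0.06). Pcsk2, a convertase that cleaves precursors in dense-core vesicles and a name added after its values were seen, was lower at -0.35 (SE 0.16) and -0.54 (SE 0.17). Pcsk7, of the same list and added in the same way, was higher at 0.31 (SE 0.11) and 0.37 (SE 0.12).

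The Trk receptors were compared with 51 other measured receptor tyrosine kinases, of 55 listed. Of these, 3 were called lower and 8 higher in resilient pools and 3 lower and 10 higher in susceptible pools, with medians of 0.06 and 0.11. The 1 below an adjusted p of 0.05 was Erbb3, a neuregulin receptor, which rose by 0.70 in the susceptible group (SE 0.19, limma adjusted p = 0.045) and by 0.62 in the resilient group (SE 0.18, limma adjusted p = 0.0669). The shares called were 21.6% and 25.5%, beside 17.7% and 18.9% of all genes.

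**Figure D3:**
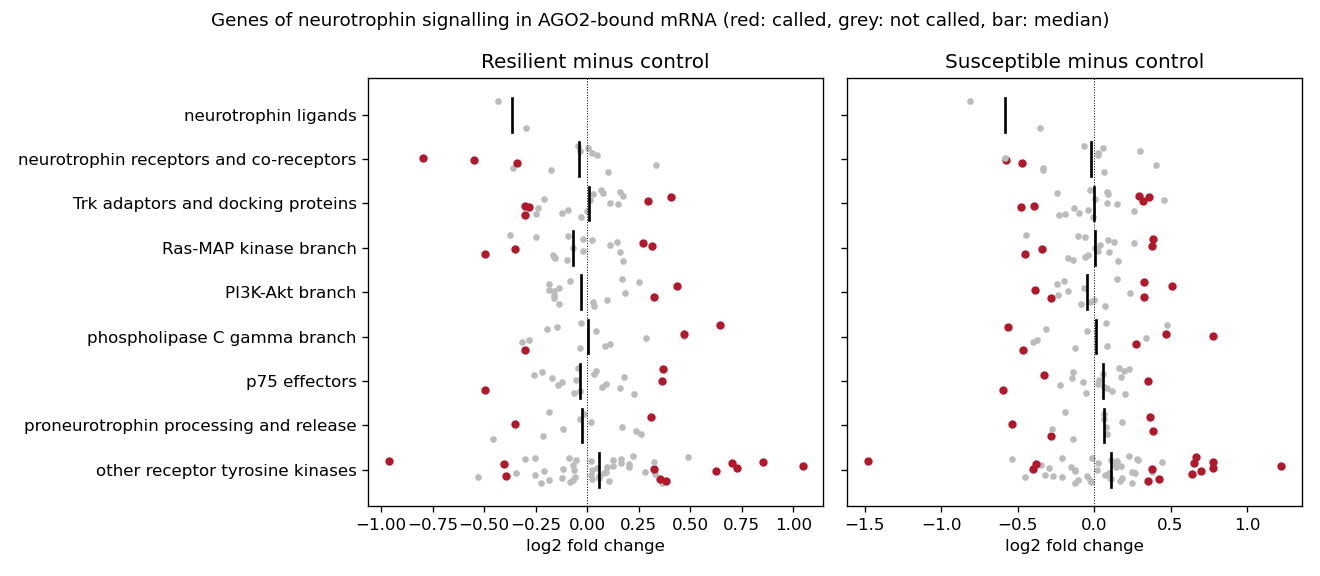
Log2 fold changes against control pools on the x axis for each measured gene of 9 lists of neurotrophin signalling, resilient pools at left and susceptible pools at right (red: called by the study's criteria, grey: not called, black bar: list median). Called genes lie on both sides of 0 in most lists, and in the list of neurotrophin receptors and co-receptors the 2 genes called in the right panel are Ntrk3 and Ntrk2.

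The genes whose pattern over the 14 pools was most like that of each member were taken from 12638 genes with a mean of at least 2 log2 CPM, or 12639 for Ngfr and Bdnf. For Ntrk2 they were Grin2b, an NMDA receptor subunit (Pearson r = 0.95), Ncoa6 (0.94) and Zfp804a (0.94). For Ntrk3 they were St8sia2, a polysialyltransferase (0.94), Nrxn3, a presynaptic adhesion protein (0.94), and Tsnax (0.94). For Sort1 they were Ece1 (0.90), Kcna4 (0.88) and Extl2 (0.88). The best matches of Ngfr (Tdg, 0.85) and Bdnf (Gm14325, 0.86) were weaker. The pools share libraries and depth, and these values are descriptions.

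Markers of brain cell types moved with the groups in part. The marker counts here and in the next paragraph stand beside 17.7% of all genes called in resilient and 18.9% in susceptible pools. Summed over 8 astrocyte markers, the level ran from 1740 to 2020 CPM in control, 1600 to 1810 in resilient and 1330 to 1710 in susceptible pools, with 0 markers called in resilient pools and 3 lower and 1 higher in susceptible pools. Summed over 6 neuron markers it ran from 1770 to 2130, 1610 to 1980 and 1330 to 1780 CPM, with 1 called lower in resilient and 3 in susceptible pools. Summed over 8 oligodendrocyte markers it ran from 3720 to 5480, 2380 to 4550 and 2280 to 3750 CPM, with 3 lower and 1 higher in resilient and 4 lower and 1 higher in susceptible pools. Single markers, named after their values were seen, differed. Of the astrocyte markers, the glutamate transporter gene Slc1a2 fell by 0.42 in the susceptible group (SE 0.10, limma adjusted p = 0.0322), while the water channel gene Aqp4 differed by 0.07. Of the neuron markers, Rbfox3 fell by 0.66 in the susceptible group (SE 0.16, limma adjusted p = 0.0339), while Stmn2 differed by 0.03. The part of these cell types in the values of Ntrk2 and Ntrk3 was not tested.

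Markers of the BNST and of neighbouring tissue were counted too. All 10 BNST markers were measured. Their sum ran from 821 to 1020 CPM in control pools (median 924). In resilient pools it ran from 772 to 1300 (median 1150) and in susceptible pools from 766 to 1030 (median 892). Of these 10 markers 2 were called lower and 1 higher in each defeated group, with median log2 fold changes of -0.36 and -0.30. A zero count stood for 1 of them in some resilient pool. Markers of striatal projection neurons, which lie beside the BNST, summed to 1770 to 2880 CPM in control (median 2350), 803 to 3330 in resilient (median 1850) and 862 to 2410 in susceptible pools (median 1610). Of these 7 markers 2 were called lower in each defeated group, with median log2 fold changes of -0.45 and -0.62, and their part in the values of Ntrk2 and Ntrk3 was not tested. The 5 choroid plexus markers summed to 32.8 to 188 CPM in control, 23.2 to 135 in resilient and 12.4 to 60.2 in susceptible pools, and 1 was called lower in resilient and all 5 in susceptible pools. Of 3 GABA neuron markers 0 and 1 were called lower, of 5 endothelial markers 0 and 1, of 4 blood cell markers in the punch 2 and 0, and of 6 microglia markers 1 and 2 lower and 1 and 1 higher in resilient and susceptible pools. None was called among 2 glutamate neuron markers and 3 oligodendrocyte precursor markers. Of 4 measured leukocyte and platelet markers, 0 were called in resilient pools and 1 each way in susceptible pools.

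The miRNAs that the study links to Ntrk3 and Ntrk2 were measured in 13 pools. The abundant member of the miR-99 family was miR-99b-5p, which stood at 12.98, 12.73, 12.92, 12.92 and 12.76 log2 CPM in control pools 1 to 5, at 12.60, 12.60, 12.42, 12.72 and 12.83 in resilient pools 1 to 5 and at 12.05, 12.26 and 12.85 in susceptible pools 1, 2 and 4. Susceptible pools 1 and 2 were below all other pools, and susceptible pool 4 lay within the control range. In the same 3 pools miR-100-5p stood at 8.85, 8.95 and 10.10 and miR-99a-5p at 7.63, 7.57 and 8.59 log2 CPM, beside control ranges of 9.43 to 9.95 and 8.08 to 8.59. Pools 1 and 2 were thus low and pool 4 high for all 3 miRNAs that share the seed. Against controls the susceptible pools differed by -0.48 for miR-99b-5p (SE 0.14, exact permutation p = 0.0536), -0.42 for miR-100-5p (SE 0.23, exact permutation p = 0.25) and -0.43 for miR-99a-5p (SE 0.19, exact permutation p = 0.179), with adjusted p of 0.602, 0.933 and 0.884 from limma.

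In AGO2-bound mRNA, the susceptible pools numbered 1, 2 and 4 stood at 7.53, 7.50 and 7.27 log2 CPM for Ntrk3. For Ntrk2 they stood at 8.41, 8.23 and 8.15. Whether a pool of the 2 data sets with the same number is the same tissue is not given in the labels. The miRNA and mRNA values therefore cannot be compared pool by pool, and a link between them was not tested.

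miR-34c-5p spread more widely. It stood at 12.07, 11.45, 11.15, 11.83 and 9.91 log2 CPM in control pools 1 to 5, at 12.16, 10.56, 10.85, 10.06 and 9.83 in resilient pools and at 9.48, 9.51 and 11.02 in susceptible pools 1, 2 and 4. The groups overlapped, and control pool 5 stood among the low defeated pools. The susceptible pools differed from controls by -1.28 (SE 0.48, exact permutation p = 0.0893, adjusted p = 0.884 from limma). miR-34b-5p, at 5.12 to 7.30 log2 CPM in control pools, differed by -0.88 (SE 0.53, exact permutation p = 0.268), whereas miR-34a-5p, at 6.77 to 7.81, differed by 0.50 in the other direction (SE 0.32, exact permutation p = 0.179). The low miR-449a-5p (0.21, SE 0.35) and miR-449c-5p (-0.12, SE 0.48) were not called. The choroid plexus markers given above were also lower in susceptible pools, and their part in the values of miR-34c-5p was not tested.

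With the study's criteria applied to the deposited values, 0 of the 2 paired miRNAs were called in resilient pools (9.52% of 788 miRNAs called), 2 in susceptible pools (4.7% of all) and 0 in susceptible against resilient pools (3.93% of all). The call in susceptible pools was lost without susceptible pool 1 for miR-99b-5p (-0.31) and miR-34c-5p (-1.01), and for miR-34c-5p also without susceptible pool 2 (-1.03) and without a mean-variance trend. Without susceptible pool 4 the difference was larger for all 4 miRNAs: -0.71 for miR-99b-5p (limma adjusted p = 0.0136), -0.76 for miR-99a-5p (0.0265), -0.82 for miR-100-5p (0.0298) and -1.79 for miR-34c-5p (0.19). Without susceptible pool 1 miR-100-5p stood at -0.19 and miR-99a-5p at -0.28, and without susceptible pool 2 they stood at -0.25 and -0.25, not called. With 5 and 3 pools the smallest exact permutation p is 0.0179.

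**Figure D4:**
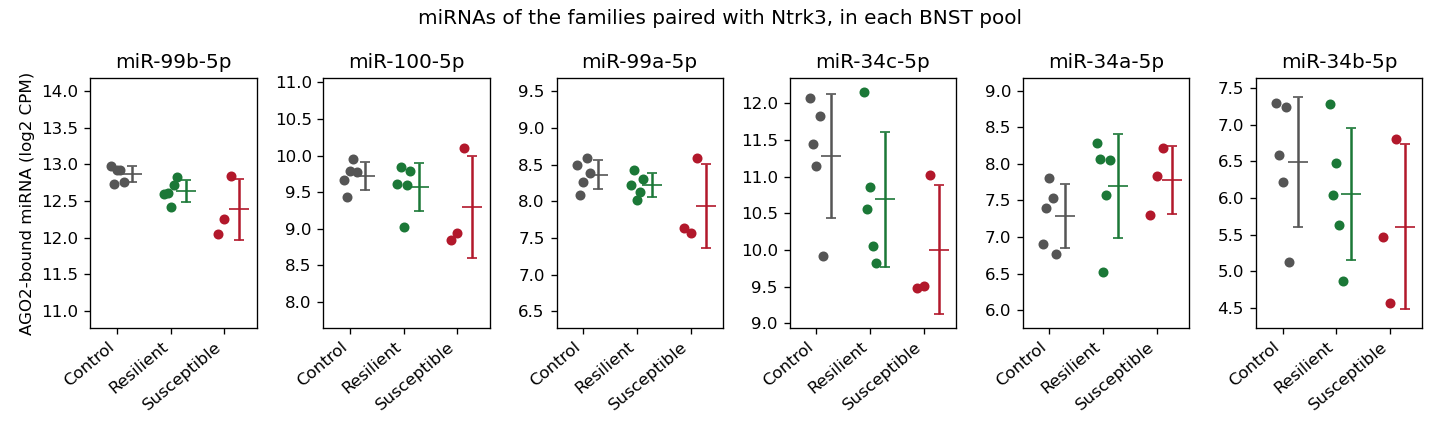
AGO2-bound miRNAs of the miR-99 and miR-34 families in each pool, on the y axis in log2 CPM, by group on the x axis (points: pools, cross bar and whiskers: mean ± SD). For miR-99b-5p, miR-100-5p and miR-99a-5p, 2 of 3 susceptible pools lie below the control range and the third lies within or above it.

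In blood, Sort1 was the one member at a clear level. All 13 leukocyte and platelet markers were measured there, at 5860 to 17900 CPM in sum. Sort1 had 291 to 832 reads a mouse, Ntrk3 14 to 107 and Ntrk2 1 to 21, so Ntrk2 rests on few reads there. Ngfr, Bdnf and Ntf3 were not analysed in blood.

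The difference of Sort1 between susceptible and control mice had opposite signs in the 2 strains, neither past the test on its own. In B6 mice 1 to 5, controls stood at 4.98, 4.45, 5.51, 5.64 and 4.69 log2 CPM, resilient mice at 6.04, 5.19, 5.56, 4.69 and 5.05 and susceptible mice at 6.31, 5.12, 5.89, 4.78 and 5.54. In D2 mice 1 to 5, controls stood at 5.44, 4.82, 5.71, 5.47 and 4.90 and susceptible mice at 4.87, 5.02, 5.29, 4.89 and 4.39. Groups of each strain overlapped. Susceptible minus control was 0.47 in B6 (SE 0.28, 95% interval from -0.11 to 1.05, exact permutation p = 0.214) and -0.38 in D2 (SE 0.28, interval from -0.96 to 0.21, exact permutation p = 0.143). The difference between these 2 effects was 0.85 (SE 0.40, interval from 0.03 to 1.67, limma adjusted p = 0.918). It met the study's criteria on the unadjusted p and the fold, as did 5.37% of all genes (4.57% positive like Sort1 and 0.803% negative). It no longer met them without a mean-variance trend, after quantile normalization or without any 1 of 12 of the 25 mice, with values from 0.65 to 0.85 in those fits.

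Of 13 blood cell markers, 2 met the same criteria for this difference, both of them platelet genes: Ppbp at 1.27 (SE 0.57) and Itga2b at 1.37 (SE 0.59). The third platelet gene, Pf4, stood at 1.04 (SE 0.51) and was not called. Among the leukocyte genes, none called, the T cell gene Cd3e stood at 1.19 (SE 0.66), the neutrophil genes S100a8 and S100a9 at 0.80 (SE 0.48) and 0.79 (SE 0.51), the B cell gene Cd79a at -0.58 (SE 0.34) and Ptprc at 0.10 (SE 0.27). The other leukocyte genes were negative: Ms4a1 at -0.33, Itgam at -0.24, Klrb1c at -0.15, Lyz2 at -0.10 and Ncr1 at -0.08. Their SEs were 0.30, 0.53, 0.40, 0.39 and 0.37, in that order. The full list of 13 blood markers summed to 5860 to 11600 CPM in B6 control and 7130 to 15300 in B6 susceptible mice, and to 8220 to 17900 in D2 control and 7640 to 10900 in D2 susceptible mice. The part of these cell types in the values of Sort1 was not tested.

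Ntrk3 in blood ranged from 0.60 to 2.21 log2 CPM over the 25 mice, with means of 0.98 ± 0.31 in B6 control, 1.18 ± 0.66 in B6 resilient, 1.40 ± 0.31 in B6 susceptible, 1.32 ± 0.45 in D2 control and 1.32 ± 0.34 in D2 susceptible mice (SD, n = 5 each). Ntrk2 ranged from -3.64 to 1.17 log2 CPM, which corresponds to 1 to 21 reads. The groups overlapped for both genes. Of the 3 members measured, 0 were called in B6 resilient against control (2.11% of all genes called), B6 susceptible against control (4.5%), B6 susceptible against resilient (2.03%), D2 susceptible against control (1.57%) and B6 control against D2 control mice (26.4%). For 2 D2 mice the group in the labels and the group in the column name disagreed, and the labels were used. With the groups of the column names the counts were the same and the difference of Sort1 between the strains was 0.93.

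**Figure D5:**
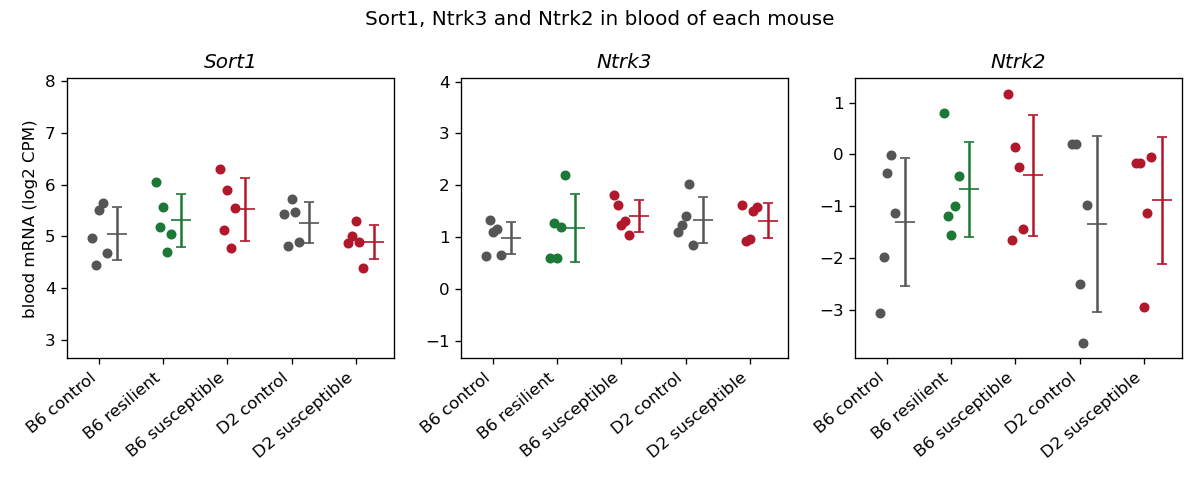
Sort1, Ntrk3 and Ntrk2 in blood of each mouse, on the y axis in log2 CPM, by strain and group on the x axis (points: mice, cross bar and whiskers: mean ± SD). All panels span the same number of log2 units. Groups overlap in every panel, and the spread between mice is widest for Ntrk2, which rests on 1 to 21 reads.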

How the data were processed

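The authors immunoprecipitated AGO2 from pools of BNST, made stranded mRNA libraries from the bound RNA and total RNA libraries from blood after globin depletion, aligned reads to GRCm38, counted exon reads per gene, removed scarce genes and deposited log2 CPM values from voom. In the tables the fewest samples at 1 CPM or more over the genes were 4 AGO2 pools and 2 blood mice. Bowtie 1.1.1 and limma are named in the submitters' processing notes. Their later correction for cohort (mRNA) and surrogate variables (miRNA) is not in the deposited log2 values, and cohort is not in the labels, so it could not be fitted. The strand setting of the counting is not given in the sources used here.

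From each deposited column whole reads were recovered (all values whole within 0.0001). The recovered reads totalled 3701281 to 10659882 per pool for AGO2 mRNA, 3173294 to 9404828 for AGO2 miRNA and 9751603 to 15878495 per mouse for blood mRNA. The library sizes behind the deposited values are scaled and differ from these totals, most of all in blood. For B6 resilient mouse 1 the scaled size was 9529203 against 14791202 reads, and for mouse 5 it was 23294520 against 15878495. All genes of a table and all its groups were fitted in 1 limma model (limma 3.58.1, R 4.3.3) with a mean-variance trend and Benjamini-Hochberg adjustment over all 16587, 788 or 13084 features. For each member an exact permutation p (two-sided) was also computed over pools or mice. Labels do not say which pools share a cohort or cage, so p-values measure the spread between these pools. Positions of genes were read from the GENCODE annotation of GRCm38, with symbols for 16535 of the 16587 AGO2 genes and 13054 of the 13084 blood genes. Of 788 miRNAs, 686 matched a RefSeq mature sequence, and sequences and positions of miRNAs are those of RefSeq for GRCm38.

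The members and lists were chosen with earlier results of these data known. All members were to be described, and of each pathway list at most the 3 genes with the smallest p among those with an adjusted p below 0.05 against controls were to be named. Alternatives were no trend, sample weights, quantile normalization, voom weights on the recovered reads, only the compared groups, a mean of at least 2 log2 CPM, a replicate block, the groups of the blood column names, and leaving out each sample. The fits were tested on simulated data. Columns of blood miRNA were not used, and results for some listed genes are not reported here.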

Additional observations from a re-analysis of the deposited data

Results flagged for a closer look

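The effect of defeat on Sort1 in blood met the study's criteria for a difference between the strains, as did 5.37% of all genes (4.57% positive like Sort1 and 0.803% negative), and did not pass the correction for all genes. Susceptible minus control was 0.47 in B6 and -0.38 in D2 mice, a difference of 0.85 on the log2 scale (SE 0.40, limma adjusted p = 0.918). The criteria were no longer met in 14 of 28 alternatives, 12 of which left out 1 mouse. The platelet genes Itga2b (1.37) and Ppbp (1.27) met the same criteria, and Pf4 (1.04) and the 10 leukocyte markers did not. Of 30 groups of pools or mice tested for a sample far from the others over the members, 0 had one.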

How the results depend on the processing

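The counts of members called in AGO2-bound mRNA (2, 2 and 0) stayed at these values in all alternatives, leaving out each pool included, and the call of no member changed. With a mean of at least 2 log2 CPM, Ngfr and Bdnf were left out and had no value. With the replicate number as a block they were also 2, 2 and 0. Of 13 correlations between same-numbered pools (-0.17 to 0.14), 2 were above 0.1. Pools of different numbers were not compared in this way, so whether the numbers pair the pools was not tested. With the block the limma adjusted p was 0.0696 and 0.0266 for Ntrk2 and 0.096 and 0.0723 for Ntrk3 in resilient and susceptible pools. The share of all genes with an adjusted p below 0.05 ran from 0.0784% (no trend) to 11.8% (without resilient pool 3) in resilient pools, against 1.95%, and from 0.217% (without susceptible pool 2) to 8.61% (sample weights) in susceptible pools, against 4.02%. Of the 2 paired miRNAs in susceptible pools, 1 was called without a trend, against 2. In susceptible against resilient pools 1 was called with sample weights, with quantile normalization and with the replicate block, against 0. Without 1 pool the miRNA counts ran from 0 to 1 in resilient against control, from 0 to 2 in susceptible against control and from 0 to 2 in susceptible against resilient pools. In blood the count for the difference between strains was 0 without a trend and with quantile normalization, against 1, and ran from 0 to 1 without 1 mouse, as did that of B6 susceptible against control (0 in the full fit). The cause was not tested. Of 88 list counts, 10 moved by over 1.5 times with sample weights, 6 with quantile normalization and 10 with the replicate block, and of 1232 without 1 pool, 200 did. Bdnf and Ngfr in the BNST and Ntrk2 in blood are limited by depth.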

Other observations

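In blood, over 25 mice, Ntrk2 was most like Pla1a (Pearson r = 0.87), Fbn1, which encodes fibrillin (0.87), and Sema3c (0.86), and Sort1 was most like Alox5ap (0.91), Srxn1 (0.91) and Ubash3b (0.91), over 13083 other genes. These correlations share libraries and depth and are descriptions.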
